A study of Mus musculus with 2 samples.

Results

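Epiregulin (EREG) was compared with epidermal growth factor (EGF) in 6 of the 18 libraries of a study of mouse small intestinal organoids. All of them belonged to the experiment labelled 2, with 3 libraries of each ligand. The organoids came from crypts of 1 wild-type C57BL/6J mouse. The study's methods put its crypt donors at 2 to 4 months of age. They had grown for 3 days in ENR, the standard medium with EGF (50 ng/ml), Noggin (100 ng/ml) and R-spondin 1 (250 ng/ml). EGF was then withheld for 24 h, and EGF or EREG was added at 100 ng/ml for a further 24 h, so that every library carried the same earlier EGF exposure and the same day without it. The 12 other libraries were the NRG1 cultures of experiment 2 and the EGF, EREG and NRG1 cultures of experiment 1. RNA was read by a bulk method derived from Drop-seq, named BRB-seq in the title of the series and Bulkseq in the study's methods, in which the 3′ end of each transcript is copied with an oligo-dT primer that adds a library barcode of 12 bp and a molecular identifier (UMI) of 8 bp. A 61 nt read then names the gene, so each value is a count of UMIs per gene. Of 31053 genes in the table, 13992 had at least 5 counts over the 18 libraries. Of these, 12130 also reached an average of 1 normalized count per library and were tested.

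EGF and EREG belong to the same family of secreted growth factors. EGF binds the receptor EGFR, and EREG binds EGFR and ERBB4, each as pairs that can include ERBB2, and the bound receptors signal through RAS and ERK. In the small intestine these ligands act on crypts, where LGR5+ stem cells lie between Paneth cells that make antimicrobial peptides. Their daughters divide and become absorptive enterocytes, mucus-making goblet cells, hormone-making enteroendocrine cells or tuft cells, all of which organoids can form in culture. The question addressed was how the epithelial transcriptome differs when EREG takes the place of EGF at an equal concentration.

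The 6 libraries held between 1486253 and 1788324 UMIs and 12536 to 12749 detected genes, and the 3 EREG libraries were the deeper ones. Whether the 3 libraries of a ligand came from separate cultures is not stated. The p-values therefore rest on differences between libraries that may be technical. EREG was given with a different catalogue number in the sample labels and in the methods of the study, at the same concentration. Markers of epithelium (Epcam, Cdh1, Krt8) summed to 4333 to 4656 UMIs with EGF and 4645 to 6557 with EREG. Fibroblast markers (Col1a1, Col3a1, Pdgfra, Dcn) summed to 0 to 4 with EGF and 2 to 7 with EREG, with Pdgfra at 0. Immune markers (Ptprc, Cd3e, Csf1r) summed to 0 with EGF and 0 to 3 with EREG, with Cd3e and Csf1r at 0, and endothelial markers summed to 0 or 1 in every library with Cdh5 at 0. Over longer lists the sums were 28 to 35 with EGF and 22 to 50 with EREG for fibroblasts and smooth muscle (4 of 15 genes at 0), 9 to 13 and 6 to 17 for immune cells (9 of 15 at 0), and 46 to 51 and 41 to 49 for endothelium and glia (3 of 10 at 0).

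The library EREG 3 stood apart from EREG 1 and EREG 2. The deposited sample sheet lists it, and the NRG1 library with the same number, as held in a tube, whereas the others have a plate well. Over the genes, its counts differed from those of the EGF libraries by a chi-square per degree of freedom of 1.90 to 2.83, and from EREG 1 and EREG 2 by 3.96 and 3.53. The 3 EGF libraries differed from each other by 1.52 to 2.59, and EREG 1 and EREG 2 differed from each other by 2.82 and from the EGF libraries by 3.26 to 5.45. By this measure EREG 3 was nearer to the EGF libraries than to the others of its own label. Pearson's r of log2 values was less clear. For EREG 3 it was 0.97455, 0.97046 and 0.9738 with EGF 1, EGF 2 and EGF 3. With EREG 1 and EREG 2 it was 0.96843 and 0.97078, so EGF 2 was no nearer than EREG 2. Below, values without EREG 3 are given for the counts of calls and lists and for the named genes that gained or lost a call or changed most without it.

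With all 6 libraries, 121 of 12130 genes passed edgeR's quasi-likelihood test at an adjusted p under 0.1, which is 0.998% of those tested, and 1198 had an unadjusted p under 0.05. With EREG, 53 genes were higher (0.437%) and 68 were lower (0.561%). The replicate number was a term of the fit, and without it 29 genes passed (13 higher, 16 lower). DESeq2 called 136 genes and shared 70 of them with edgeR. The changes were small: the median absolute log2 fold change of the 121 genes was 0.50, the smallest was 0.29, and 9 genes reached 1. The 3 values with EREG lay all above or all below the 3 with EGF for 103 of the 121 genes (85.1%), against 1760 of all genes tested, or 14.5%. The calls were made on these same values, so a higher share among them follows in part from the choice. The median log2 fold change over all genes was -0.0029.

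The number of calls turned on single libraries. Without EREG 3 it rose to 532 (4.39%), with 229 higher (1.89%) and 303 lower (2.5%), and 112 of the 121 genes were among them. Without EREG 1 only Krt20 and Serpinb1a passed, and without EREG 2 only 11 genes did. Leaving out EGF 1, EGF 2 or EGF 3 gave 25, 29 and 27 calls. No gene among the 121 passed without every one of the 6 libraries in turn, and 7 genes passed in 5 of the 6 fits: Cyp4f14, Apoa4, Krt20, Cct2, Serpinb1a, Gm26917 and Sprr1a. Libraries 1 and 3 of each ligand were sequenced in the pool called S3 and library 2 in S4. Within pool S3 alone no gene passed, with 647 at an unadjusted p under 0.05, and S4 held 1 library of each ligand in this experiment, so that a difference there has no replicate.

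**Figure D1:**
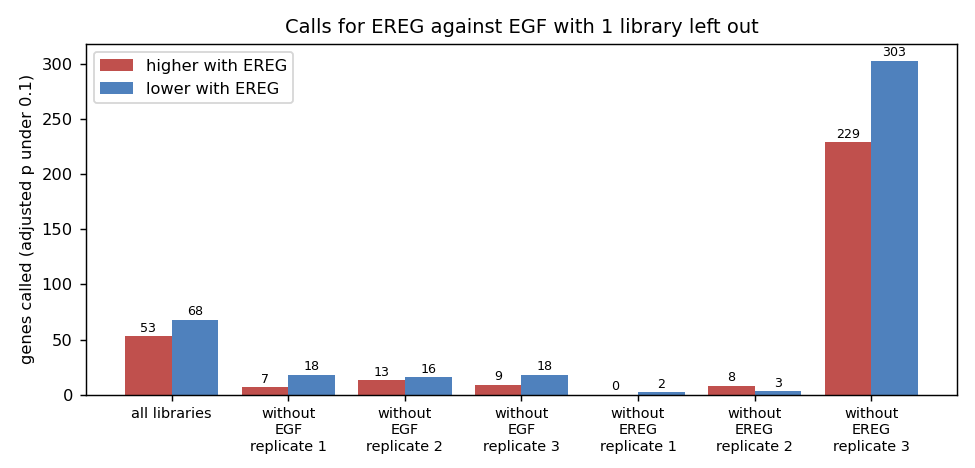
Number of genes that passed edgeR's quasi-likelihood test (vertical axis, adjusted p under 0.1) with all 6 libraries and with each library left out in turn; bars show genes higher and genes lower with EREG. Removing EREG 3 raised the count from 121 to 532, and removing EREG 1 left 2.

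Krt20, Sprr1a and Serpinb1a were lower with EREG in all 3 libraries, EREG 3 included, and EREG 3 was not set apart from EREG 1 and EREG 2 in them. Krt20, a keratin of differentiated intestinal cells (GRCm38.p6 chromosome 11, 99428403 to 99438150), had normalized counts of 428, 415 and 382 with EGF and 292, 244 and 264 with EREG. Its mean fell from 408 ± 23.6 to 267 ± 24.3 (SD, n = 3 each), a log2 fold change of -0.61 ± 0.11 (SE, edgeR adjusted p = 0.00109), and the difference was -0.54 within pool S3 and -0.76 in S4. Every EREG value was below every EGF value, and the call was lost only without EREG 2.

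Sprr1a, a small proline-rich protein of barrier epithelia (chromosome 3, 92483952 to 92485895), had 269, 316 and 305 normalized counts with EGF and 162, 172 and 138 with EREG. The mean with EGF was 1.89 times that with EREG (log2 fold change -0.92 ± 0.17, edgeR adjusted p = 0.00954), with differences of -0.95 in pool S3 and -0.87 in S4. EREG 3 was the lowest of the 6 libraries here. The call was lost without EREG 1. Serpinb1a, an intracellular inhibitor of neutrophil serine proteases, had 507, 547 and 511 with EGF against 360, 367 and 378 with EREG (-0.50 ± 0.10, edgeR adjusted p = 0.00532). The 3 EREG values were close together and all below the lowest EGF value.

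Krt20 and Sprr1a were also among the genes called lower whose RefSeq promoter (GRCm38.p6, 250 bases before to 50 after the start) holds the letters TATAAA on either strand. This was so for 10 of the 52 such genes with a promoter in the table (19.2%), against 13.2% of genes called higher and 9.10% of all 9477 tested genes with one. For genes called lower without EREG 3 the share was 12.4% (29 of 233), nearer to that of all genes. H2-D1 and Reg3g, also called lower, hold TATAAA at -26 and -27 from the start. H2-D1 passed without EREG 3 (edgeR adjusted p = 0.000475) and kept its direction in it, as Krt20 and Sprr1a did. The stretches around the motif are shown for Krt20 and Sprr1a only, as examples. They are from the minus strand, 5′ to 3′, with TATAAA in capitals, at chr11:99438165-99438194 for Krt20 and at chr3:92485907-92485936 for Sprr1a.
Krt20: tctcttgaactcTATAAAaggtcatctcca
Sprr1a: aggtgttcttctTATAAAaagccagctgcc
The genes and the motif were chosen after values were seen, and a match describes letters, not a site in use. Other motifs were searched on both strands too. AP-1 (TGANTCA) was found in 7 of the 52 promoters of genes called lower (13.5%), in 10.3% of those called lower without EREG 3 and in 6.25% of all, In genes called lower and in all genes, TEAD (GGAATG) was found in 13.5% and 14.5%, the antioxidant response element (TGACNNNGC) in 21.2% and 17.1% and the CArG box in 1.92% and 1.59%.

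Several genes of absorptive enterocytes were lower with EREG, and no list of such genes had many calls. Of 28 tested genes of the brush border list, 1 was called lower and none higher (median -0.12), and without EREG 3 this was 3 and 1 (median -0.24). Cyp4f14, a cytochrome P450 that inactivates lipid mediators, had 881, 917 and 852 normalized counts with EGF and 540, 616 and 670 with EREG (log2 fold change -0.53 ± 0.10, edgeR adjusted p = 0.00109). Apoa4, an apolipoprotein of chylomicrons, had 2093, 1670 and 1915 with EGF and 1269, 1249 and 1494 with EREG (-0.49 ± 0.09, edgeR adjusted p = 0.00109). In both genes EREG 3 was the highest EREG library and still lay below every EGF library, and both calls were lost only without EREG 1.

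Fabp6, the ileal bile acid binding protein, had 90.0, 117 and 85.1 normalized counts with EGF and 46.4, 48.0 and 62.5 with EREG (-0.91 ± 0.21, edgeR adjusted p = 0.0217). The carboxylesterase Ces1d had 183, 144 and 166 against 72.6, 73.5 and 134 (-0.83 ± 0.18, adjusted p = 0.00962). In Ces1d, EREG 3 lay near the lowest EGF library, and without it the log2 fold change was -1.15.

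The detoxification list held 30 tested genes of xenobiotic metabolism, of which 4 were called lower and none higher, or 6 lower without EREG 3. Its median was -0.25, with medians of -0.32, -0.15 and -0.27 in EREG 1, EREG 2 and EREG 3 against the EGF mean, and 25 of the 30 genes were below 0. Its called members were Cyp4f14 and the carboxylesterases Ces1d, Ces1f and Ces2c, and Ces1f was lower by -0.50 and Ces2c by -0.64 on the log2 scale (edgeR adjusted p = 0.0517 and 0.09). Ces2c did not pass without EREG 3 (-0.57, adjusted p = 0.127). Of the last 500 nt of Ces2c, where 3′ reads fall, 24.9% of 61 nt windows also occur in another gene, so its reads may be shared. In the lipid absorption list 1 of 22 genes was called lower (Apoa4) and in the ileal bile acid list 1 of 12 (Fabp6), with medians of -0.15 and -0.05. Without EREG 3 this was 4 and 2 genes. Alpi, the alkaline phosphatase of mature enterocytes, had 88.9, 86.4 and 88.5 with EGF and 64.5, 53.7 and 75.4 with EREG. Its libraries did not overlap, but it did not pass (-0.45 ± 0.17, adjusted p = 0.271).

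**Figure D2:**
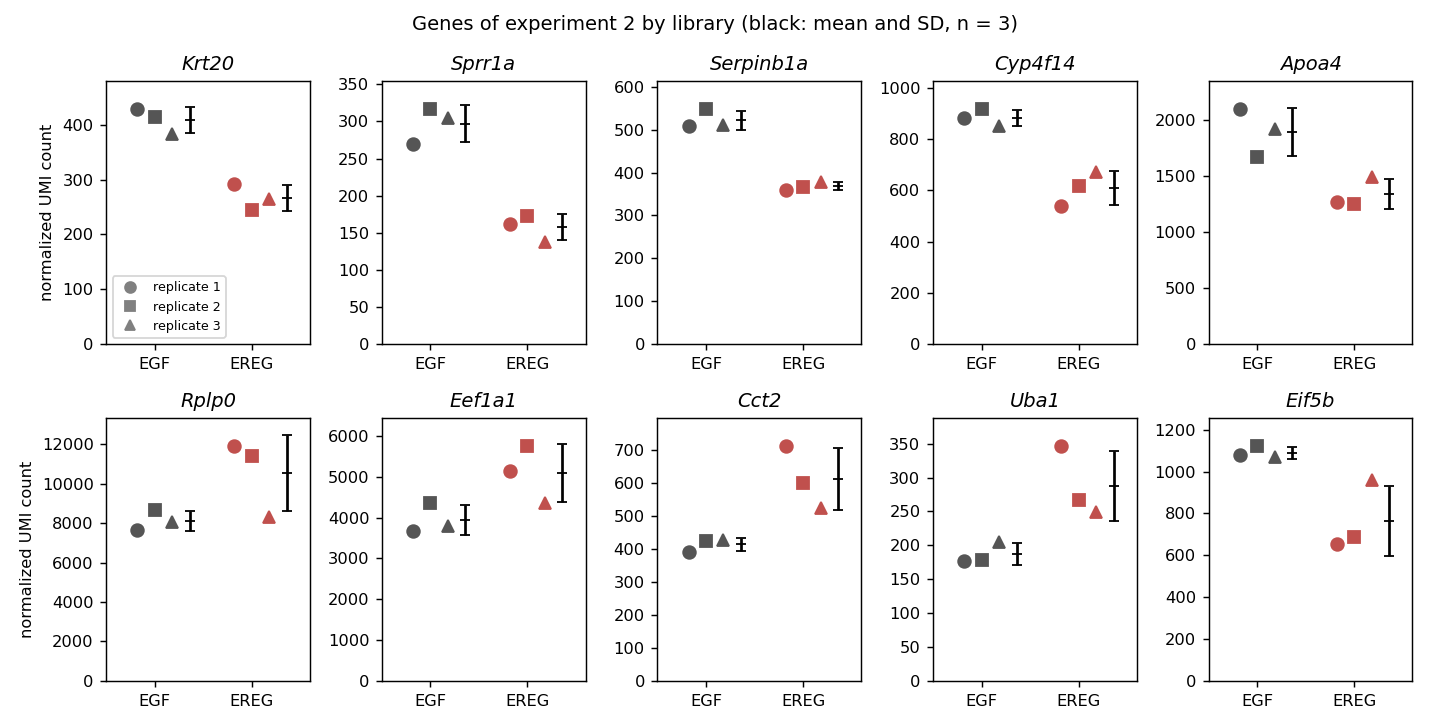
Normalized UMI counts (vertical axes, from 0) of 10 called genes in each library of experiment 2; points are libraries 1 to 3 of EGF and of EREG, and the black mark and bar give the mean and SD (n = 3). In the upper genes all 3 EREG libraries were lower, as for Krt20 with 292, 244 and 264 against 382 or more, and in the lower genes EREG 3 lay nearest to EGF, as for Rplp0 with 8326 against 11921 and 11414.

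Some products of Paneth and goblet cells were lower by smaller factors. Of 23 tested genes of the Paneth list, 4 were called lower and none higher (Defa24, Defa17, Defa30 and Guca2a), with a median of -0.25 and library medians of -0.23, -0.29 and -0.21, so that EREG 3 was close to the others. Without EREG 3, 8 were lower and 1 was higher. The α-defensin Defa24 had 37934, 32361 and 35588 normalized counts with EGF and 27303, 23255 and 29883 with EREG (-0.40 ± 0.08, edgeR adjusted p = 0.00533). The groups did not overlap, yet the call was lost without EREG 1 and without EREG 2. In bulk RNA, fewer cells of a type and less RNA per cell cannot be told apart.

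The α-defensins are near-identical copies, and their reads may be split between members. For Defa24, 18.1% of the 61 nt windows at the 3′ end occur in another gene, for Defa30 40.5% and for Defa17 91.7%. Defa30 (-0.33 ± 0.09, edgeR adjusted p = 0.0658) and Defa17 (-0.31 ± 0.08, adjusted p = 0.0556) were also called lower, but library 2 of each ligand was lowest in Defa17 and its ranges overlapped, with 7827, 4401 and 7722 against 6305, 3573 and 6168. Of all 12 tested Defa genes, 3 were called lower and the median was -0.32, or 5 and -0.37 without EREG 3. Lyz1, the lysozyme of Paneth cells (11.4% of windows shared), had 8872, 8889 and 8679 with EGF and 7157, 7446 and 7602 with EREG. It did not pass with all libraries (-0.25 ± 0.09, adjusted p = 0.196) and passed without EREG 3 (-0.31, adjusted p = 0.0393).

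Of 23 tested genes of the goblet list 2 were called lower and none higher (median -0.12), or 3 without EREG 3 (median -0.22), of which Guca2a was also in the Paneth list. Spink4, a secreted protease inhibitor, had 6387, 5027 and 5388 normalized counts with EGF and 4435, 3859 and 4585 with EREG (-0.38 ± 0.09, edgeR adjusted p = 0.0139). Guca2a, the peptide guanylin that acts on salt and water transport, had 2781, 3220 and 3034 against 2216, 2483 and 2297 (-0.37 ± 0.09, adjusted p = 0.0248). The groups did not overlap in either gene, and EREG 3 was not set apart from EREG 1 and EREG 2. Muc2, the main gel-forming mucin, did not pass (0.42, adjusted p = 0.562). Of 5 tested Reg lectins, antibacterial proteins of the gut, 1 was called lower: Reg3g had 402, 457 and 347 against 306, 285 and 325 (-0.39 ± 0.11, adjusted p = 0.0789). Reg4 had 1550, 1501 and 1440 against 1124, 1309 and 1217 and passed only without EREG 3 (-0.30 ± 0.09, adjusted p = 0.126 with it, and -0.33, adjusted p = 0.0394 without it).

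The list of fetal and regenerative genes and that of annexins and S100 genes had medians below 0 in all 3 EREG libraries, and few of their genes passed. Of 24 tested fetal and regenerative genes, 1 was called lower (Sprr1a) and none higher, or 2 lower without EREG 3, with a median of -0.23 and library medians of -0.28, -0.18 and -0.35. For the 16 annexins and S100 genes no member passed, and the median was -0.21, with -0.19, -0.23 and -0.29 in the 3 libraries. None of 7 tested Ly6 genes passed, and all 7 were below 0, as were 6111 of all 12130 genes. Ly6c1 and Lynx1 had low counts, with EGF means of 2.93 and 6.98, and Ly6e was at -0.05. The median of the Ly6 list was -0.24, and in experiment 1 it was 0.02. Ly6a, a surface marker of regenerating epithelium, had 128, 150 and 136 against 114, 99.8 and 102 (-0.40 ± 0.17, edgeR adjusted p = 0.388). In the fetal and annexin lists EREG 3 had the lowest median of the 3. The list of small proline-rich and cornified envelope genes, which also holds Sprr1a, had 1 of 8 tested genes called lower. Of the 8, 4 were above and 4 below 0, and the library medians were -0.35, -0.05 and 0.06.

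**Figure D3:**
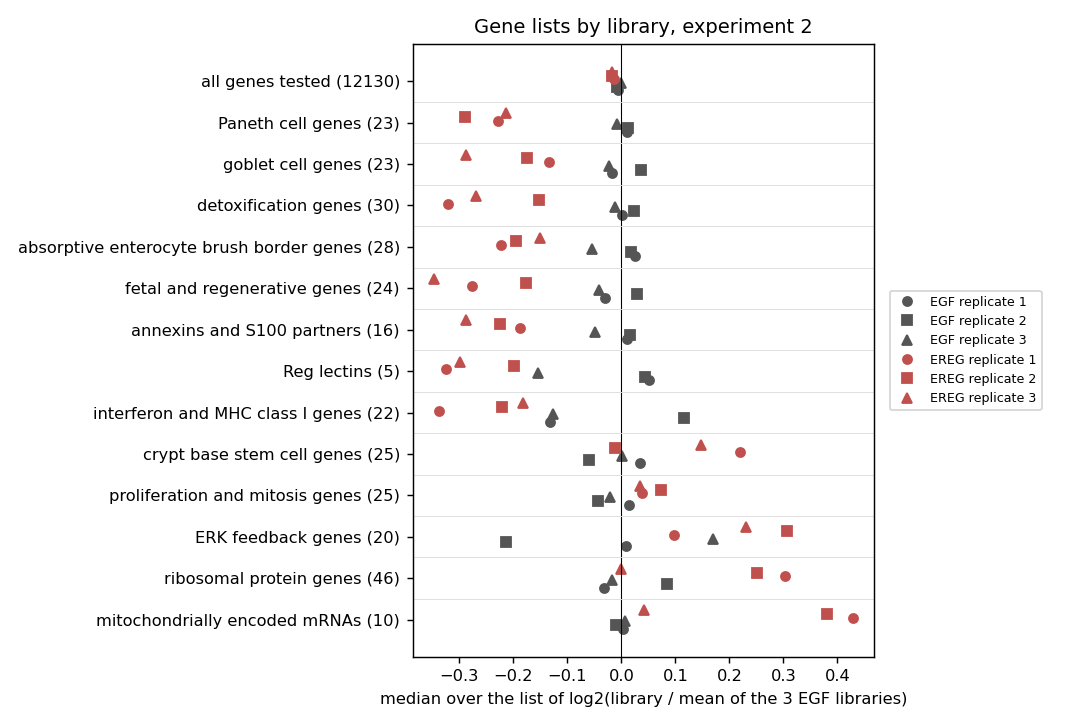
Median log2 ratio of each library of experiment 2 to the mean of the 3 EGF libraries (horizontal axis) for all genes tested and for named gene lists (vertical axis, number of tested genes in brackets); EGF libraries are grey and EREG libraries red, and the symbol gives the library number. In the fetal and regenerative list the 3 EREG medians were -0.28, -0.18 and -0.35, while in the ribosomal protein list they were 0.30, 0.25 and 0.00, with EREG 3 at the level of EGF.

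The genes for ligands and receptors of the family are given by their values, since with 0.998% of all genes called a list this short says little by its calls. Of 6 tested ligand genes and 17 receptor and inhibitor genes none passed, and Egf itself had 4 UMIs in the 6 libraries and was not tested. Areg, an EGFR ligand, had 920, 917 and 822 normalized counts with EGF and 972, 990 and 817 with EREG (0.06 ± 0.13, edgeR adjusted p = 0.922). Ereg itself had 19.8, 4.32 and 9.08 against 23.2, 25.4 and 6.94 (0.75 ± 0.43, adjusted p = 0.575). The ligands overlapped for both genes. Nrg4, an ERBB4 ligand, had 23.1, 28.1 and 25 against 11.1, 13.2 and 13.9, which did not overlap but did not pass at these low counts (-0.99 ± 0.37, adjusted p = 0.266).

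Erbb2, the receptor partner, had 53.8, 57.2 and 66.9 normalized counts with EGF and 97.8, 80.0 and 56.5 with EREG (0.39 ± 0.20, edgeR adjusted p = 0.527). Erbb3 had 203, 217 and 212 against 132, 199 and 199 (-0.26 ± 0.13, adjusted p = 0.513), and Egfr had 28.5, 19.4 and 12.5 against 25.2, 25.4 and 17.9 (0.18, adjusted p = 0.903). None of the 3 passed, and Erbb2 and Egfr overlapped between the ligands. None of 20 tested ERK feedback genes, which are induced by and restrain ERK signalling, passed either with or without EREG 3. Their median was 0.38, with library medians of 0.10, 0.31 and 0.23 for EREG and 0.01, -0.21 and 0.17 for EGF.

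Stem cell and cell cycle genes had few or no calls, and with 0.998% of all genes called such short lists would hold few in any case. Of 25 tested crypt base stem cell genes none was called with all libraries, with a median of 0.10, and without EREG 3, 1 was higher and 2 were lower. Lgr5, the stem cell receptor for R-spondins, had 70.3, 70.2 and 80.5 normalized counts with EGF and 97.8, 71.6 and 87.3 with EREG (0.21 ± 0.17, edgeR adjusted p = 0.728). Olfm4, a secreted glycoprotein of the crypt base, had 625, 585 and 619 against 716, 814 and 669 and passed only without EREG 3 (0.26 ± 0.10, adjusted p = 0.263 with it, and 0.35, adjusted p = 0.0394 without it). None of 25 proliferation genes (median 0.03), 27 DNA replication genes (median -0.04), 19 Wnt target genes or 17 YAP target genes (median 0.02) passed with all libraries. Without EREG 3, 1 proliferation gene was higher, 1 DNA replication gene and 1 YAP target gene were lower, and no Wnt target gene passed. Mki67, a marker of dividing cells, and Chga, a marker of enteroendocrine cells, had log2 fold changes of -0.18 and -0.07 (adjusted p = 0.686 and 0.928). None of 26 enteroendocrine and 18 tuft cell genes passed with all libraries, and without EREG 3, 1 enteroendocrine gene was higher and 3 were lower, and 1 tuft cell gene passed in each direction.

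The genes that were higher with EREG included genes of translation, and for many of these EREG 3 lay close to EGF. Of the 46 ribosomal protein genes of the list, 8 were called higher and none lower, with a median of 0.17, or 18 and 0.27 without EREG 3. Over all 77 tested Rpl and Rps protein-coding genes, 14 were higher and none lower (median 0.24), and without EREG 3 this was 36 (median 0.35). The medians of the 46 genes were 0.30 and 0.25 in EREG 1 and EREG 2 but 0.00 in EREG 3, against -0.03, 0.08 and -0.02 in the EGF libraries. Their summed share of UMIs was 6.61, 7.16 and 6.73% with EGF and 8.44, 8.37 and 7.06% with EREG (exact permutation test, two-sided, p = 0.2, where 0.1 is the smallest that 3 against 3 allows).

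Rplp0, a protein of the ribosomal stalk, had 7632, 8668 and 8039 normalized counts with EGF and 11921, 11414 and 8326 with EREG. Its log2 fold change was 0.38 ± 0.09 (edgeR adjusted p = 0.0208) with all libraries and 0.54 (adjusted p = 1.02e-05) without EREG 3, which fell inside the EGF range. Rpsa, a protein of the small subunit, had 501, 420 and 506 against 858, 579 and 602 (0.51 ± 0.10, adjusted p = 0.00532). Rpl30 had 491, 515 and 420 against 733, 759 and 463 and Rpl7 had 1033, 1420 and 1100 against 1562, 1836 and 1228. Both were called (0.45 and 0.38, adjusted p = 0.0292 and 0.0248), although EREG 3 overlapped the EGF libraries. Between 20.6 and 43.5% of the 3′ windows of these 4 genes occur in another gene, so pseudogene copies may share their reads.

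Eef1a1, the factor that brings aminoacyl-tRNA to the ribosome, had 3664, 4356 and 3804 normalized counts with EGF and 5150, 5755 and 4346 with EREG (0.37 ± 0.08, edgeR adjusted p = 0.0174). EREG 3 was below EGF 2. Npm1, a nucleolar chaperone of ribosome assembly, had 1505, 1344 and 1465 against 2259, 1817 and 1492 (0.36, adjusted p = 0.0332), and Eif3e, an initiation factor subunit, had 576, 436 and 563 against 944, 717 and 555 (0.49, adjusted p = 0.0217). In both, only EREG 1 and EREG 2 stood above the EGF range, and 17.6 and 13.8% of the 3′ windows were shared. Without EREG 3 their log2 fold changes were 0.52 and 0.67.

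Transcripts of ribosomal proteins and of Eef1a1 typically begin in a run of pyrimidines, through which their translation is regulated. A run of 7 or more C or T that starts with C, within 10 bases before to 20 after the RefSeq start on the sense strand, was found in 14 of 38 genes called higher with a promoter (36.8%). It was found in 15.4% of genes called lower, in 17% of all tested genes with a promoter and in 15 of 34 ribosomal protein genes (44.1%). Without EREG 3, 26.3% of the genes called higher held it, and 21.3% of those that are not Rpl or Rps genes. The 30 bases from 10 before the start are shown for 4 called genes of translation that were picked because they hold the run, as examples of it. In Eef1a1, Rps10, Rpl27a and Rps24 the run starts at -5, -3, -4 and -2 from the RefSeq start, so part of it lies before that start. Where their transcripts begin was not tested, and a match describes letters only. The run is in capitals, and the stretches lie at chr9:78481705-78481734 (minus strand), chr17:27635225-27635254 (minus), chr7:109519185-109519214 (plus) and chr14:24490668-24490697 (plus) of GRCm38.p6.
Eef1a1: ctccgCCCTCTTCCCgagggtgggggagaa
Rps10: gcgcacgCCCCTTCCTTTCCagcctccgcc
Rpl27a: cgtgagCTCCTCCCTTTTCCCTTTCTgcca
Rps24: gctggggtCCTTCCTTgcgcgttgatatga
Rps10 had 1286, 1327 and 1294 normalized counts with EGF and 2094, 1714 and 1310 with EREG, and Rps24 had 4362, 4258 and 4261 against 6333, 5559 and 4461 (edgeR adjusted p = 0.036 and 0.0802). In Rps10 EREG 3 was within the EGF range, and 26.1% of its 3′ windows were shared.

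Mitochondrially encoded mRNAs also showed EREG 3 nearest to EGF. In mt-Co1, mt-Co2, mt-Atp6 and mt-Nd3, 95.2% or more of the 3′ windows occur in another gene, so their reads may be shared. In mt-Cytb, mt-Nd1, mt-Nd2, mt-Nd4, mt-Nd5 and mt-Nd6 this was at most 15.7%. Of 10 mitochondrially encoded mRNAs tested, 1 was called higher with all libraries and 5 without EREG 3, with medians of 0.35 and 0.47. Their share of UMIs was 0.604, 0.596 and 0.600% with EGF and 0.799, 0.748 and 0.637% with EREG (exact permutation test, two-sided, p = 0.1, the smallest the design allows). mt-Nd2, a subunit of respiratory complex I, had 768, 662 and 793 normalized counts against 1084, 988 and 858 (0.40 ± 0.10, edgeR adjusted p = 0.0292), with EREG 3 the lowest EREG library and 15.7% of its 3′ windows shared with another gene. None of 42 nuclear genes of oxidative phosphorylation passed with all libraries, and their median was -0.01. Without EREG 3, 1 passed in each direction.

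Other called genes were higher in all 3 EREG libraries. Gm26917, a noncoding RNA gene of which no function is given here (GRCm38 chromosome 17, 39843013 to 39846341), had 233, 258 and 256 normalized counts with EGF and 413, 384 and 325 with EREG (0.59 ± 0.12, edgeR adjusted p = 0.00532). Whether the reads counted for Gm26917 come from other RNA of this locus was not tested. Cct2, a subunit of the cytosolic chaperonin, had 390, 423 and 427 normalized counts with EGF and 711, 598 and 524 with EREG (0.56 ± 0.10, edgeR adjusted p = 0.00109). Uba1, the main ubiquitin-activating enzyme, had 177, 178 and 205 against 347, 267 and 249 (0.62 ± 0.12, adjusted p = 0.00396). Trp53, which encodes the tumour suppressor p53, had 120, 106 and 93.0 against 173, 202 and 125 (0.65 ± 0.15, adjusted p = 0.0167). EREG 3 was above every EGF library in Gm26917, Cct2, Uba1 and Trp53 but lower than EREG 1 and EREG 2. Rcor1, a corepressor subunit, had 42.8, 35.6 and 28.4 against 65.5, 76.3 and 70.4 (0.99 ± 0.22, adjusted p = 0.0135), and here EREG 3 was not set apart. Cgas, the sensor of cytosolic DNA, had 23.1, 9.72 and 11.3 against 32.2, 28.3 and 45.6 (1.26 ± 0.31, adjusted p = 0.0292), with EREG 3 the highest.

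Further genes rose from low counts. Hist1h1e, a linker histone, had 27.5, 13.0 and 21.6 normalized counts with EGF and 82.6, 41.4 and 34.7 with EREG (1.34 ± 0.28, edgeR adjusted p = 0.00532), but 99.1% of its 3′ windows also occur in another gene. Gm15564, of which no function is given here, had 34.0, 29.2 and 30.6 against 63.5, 70.6 and 61.5 (1.06 ± 0.24, adjusted p = 0.0208), with narrow ranges that were far apart. Midn, Khsrp, Ankrd13c, Pafah2, Mal2 and Cmtm4 also passed, with log2 fold changes of 1.36, 1.05, 0.95, 0.76, 0.65 and 0.63, and Ankrd13c did not pass without EREG 3 (0.77, adjusted p = 0.197). The most extreme fitted values came from genes near 0: 6720489N17Rik had 1.10, 0 and 0 normalized counts with EGF and 4.03, 4.71 and 9.92 with EREG (adjusted p = 0.0714), Samd5 had 6.59, 14 and 14.7 against 3.02, 3.77 and 1.98 (adjusted p = 0.0802) and Kif18b had 8.78, 7.56 and 11.3 against 1.01, 3.77 and 0 (adjusted p = 0.0977). Without EREG 3 these 3 genes did not pass (adjusted p = 0.143, 0.134 and 0.223). Of 26 tested NRF2 and glutathione genes 1 was called higher, Gsr, which encodes glutathione reductase (0.34, adjusted p = 0.0977), and without EREG 3, 3 were higher and 2 lower. Of 26 genes of the ATF4 and unfolded protein responses, Psat1, an enzyme of serine synthesis, was higher (0.38, adjusted p = 0.0802) and Hspa5, the main chaperone of the endoplasmic reticulum, was lower, with 1267, 1376 and 1315 against 924, 972 and 1117 (-0.39 ± 0.10, adjusted p = 0.0337). Without EREG 3, 2 genes of this list were higher and 3 lower.

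Eif5b, Thoc2, Pelp1 and Nr2c2 were lower with EREG, with EREG 3 the nearest of the EREG libraries to EGF. Eif5b, which joins the ribosomal subunits at the start codon, had 1079, 1123 and 1069 normalized counts with EGF and 652, 688 and 958 with EREG (-0.51 ± 0.10, edgeR adjusted p = 0.00279). Thoc2, of the complex that couples mRNA processing to export, had 201, 218 and 206 against 107, 134 and 185 (-0.56 ± 0.13, adjusted p = 0.0208). Pelp1, a nuclear receptor coregulator, had 52.7, 77.7 and 48.8 against 21.2, 19.8 and 41.7 (-1.10 ± 0.24, adjusted p = 0.011). In each of them EREG 3 was below every EGF library and nearer to EGF than EREG 1 and EREG 2. Nr2c2, an orphan nuclear receptor, had 64.8, 61.5 and 66.9 against 17.1, 35.8 and 59.5 (-0.80 ± 0.22, adjusted p = 0.0743). Without EREG 3 the log2 fold changes of Eif5b, Thoc2, Pelp1 and Nr2c2 were -0.72, -0.76, -1.64 and -1.18. Tacc2, Taf1, Sugp1 and Fam168b also passed (-0.88, -0.87, -0.83 and -0.80), and all 3 of their EREG values were below every EGF value.

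Arpc1b, a subunit of the actin-branching complex, had 1568, 1270 and 1597 normalized counts with EGF and 1001, 840 and 1325 with EREG (-0.49 ± 0.10, edgeR adjusted p = 0.00532), and EREG 3 was above EGF 2. Capg, an actin-capping protein and the 1 gene called of 32 in the actin list, had 53.8, 36.7 and 49.9 against 26.2, 16 and 28.8 (-0.98 ± 0.27, adjusted p = 0.0743). Vegfa, the angiogenic growth factor, had 62.6, 48.6 and 64.7 against 39.3, 28.3 and 29.8 (-0.85 ± 0.23, adjusted p = 0.0714) and was the 1 gene called of 27 for glycolysis and hypoxia. All 3 EREG libraries were lower for both Capg and Vegfa. Vegfa did not pass without EREG 3 (-0.75, adjusted p = 0.109). H2-D1, an MHC class I heavy chain, was the 1 called of 22 interferon and MHC genes, with 695, 816 and 750 against 519, 568 and 634 (-0.39 ± 0.10, adjusted p = 0.0387, 13.4% of 3′ windows shared). None of 22 NF-kB target genes (median -0.18) and none of 21 immediate early and AP-1 genes (median -0.16) passed with all libraries, and 1 of each was lower without EREG 3.

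Neat1, a nuclear-retained RNA, had 36.2, 46.4 and 49.9 normalized counts with EGF and 23.2, 23.5 and 20.8 with EREG (-0.97 ± 0.28, edgeR adjusted p = 0.0825) and was the 1 called of 10 nuclear-retained and stress RNAs (median -0.15). Malat1, the most abundant of these, had 1424, 1326 and 1306 against 1062, 1156 and 1384 and passed only without EREG 3 (-0.16 ± 0.11, adjusted p = 0.663 with it, and -0.34, adjusted p = 0.0498 without it). In Malat1 EREG 3 was within the EGF range, and in Neat1 it was the lowest library.

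Some abundant genes were called only when EREG 3 was left out, and 3 were picked here after their values had been seen. Ctnnb1, which encodes β-catenin of adherens junctions and Wnt signalling, had 1538, 1463 and 1513 normalized counts with EGF and 683, 912 and 1346 with EREG. It did not pass with all libraries (-0.62, edgeR adjusted p = 0.296) and passed without EREG 3 (-0.96, adjusted p = 4.89e-11). The brush border enzyme Mgam had 1119, 985 and 965 against 620, 565 and 1051 (-0.47, adjusted p = 0.339, and -0.81, adjusted p = 1.23e-08 without EREG 3). Slc12a2, a sodium, potassium and chloride cotransporter, had 1415, 1436 and 1656 against 901, 1171 and 1688 (-0.54, adjusted p = 0.000102 without EREG 3). EREG 3 was at the EGF level for Mgam and Slc12a2 and closest to it for Ctnnb1. Leaving EREG 3 out removes the EREG value farthest from the others in each gene. The small p-values without it depend on that choice.

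In the 229 genes called higher without EREG 3, a choice that fixes the direction in EREG 1 and EREG 2, their medians against the EGF mean were 0.57 and 0.46. EREG 3 did not enter that choice, and its median was 0.12. In the 303 genes called lower without it the medians were -0.66 and -0.48, and EREG 3 had -0.16. The EGF libraries that entered the choice are also the reference for EREG 3, so these medians are a description and their signs are not read as agreement.

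Transcript length was set beside these differences. Over 8796 genes that averaged 10 or more counts, Spearman's rho of the longest GENCODE transcript with the log2 fold change of EREG against EGF was 0.03. With the log2 ratio to the EGF mean it was -0.05 and -0.03 in EREG 1 and EREG 2, within the range of -0.09 to 0.05 in the EGF libraries, and 0.19 in EREG 3. These are correlations across genes, which share libraries and depth. The median longest transcript was 3251 nt for the 12118 of all genes tested with a length, 2673 nt for genes called higher and 3659 nt for genes called lower, and 2363 and 3708 nt for those called without EREG 3. Among the 2199 genes of 348 to 2097 nt, 18 were called higher and 20 lower with all libraries, and among the 2197 genes of 4711 nt or more 9 were higher and 14 lower. In the shorter set 100 were called higher and 55 lower without EREG 3, and in the longer set 32 were higher and 87 lower. The part of transcript length in the calls was not tested.

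The same ligands had been compared in experiment 1, with 3 libraries each that shared no controls with experiment 2. No gene passed there (0%), with 513 at an unadjusted p under 0.05, and DESeq2 and limma-voom also called 0. Of the 53 genes called higher in experiment 2, 23 were above and 30 below 0 in experiment 1, with medians of 0.47 in experiment 2 and -0.02 in experiment 1. Of the 68 called lower, 37 were below and 31 above 0, with medians of -0.51 and -0.02. Over 8899 genes the log2 fold changes of the 2 experiments had a Pearson's r of -0.02 and a Spearman's rho of -0.02 across genes. Krt20 was lower in experiment 1 too, at -0.37 ± 0.12, while Sprr1a was at 0.04 and Serpinb1a at -0.06.

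**Figure D4:**
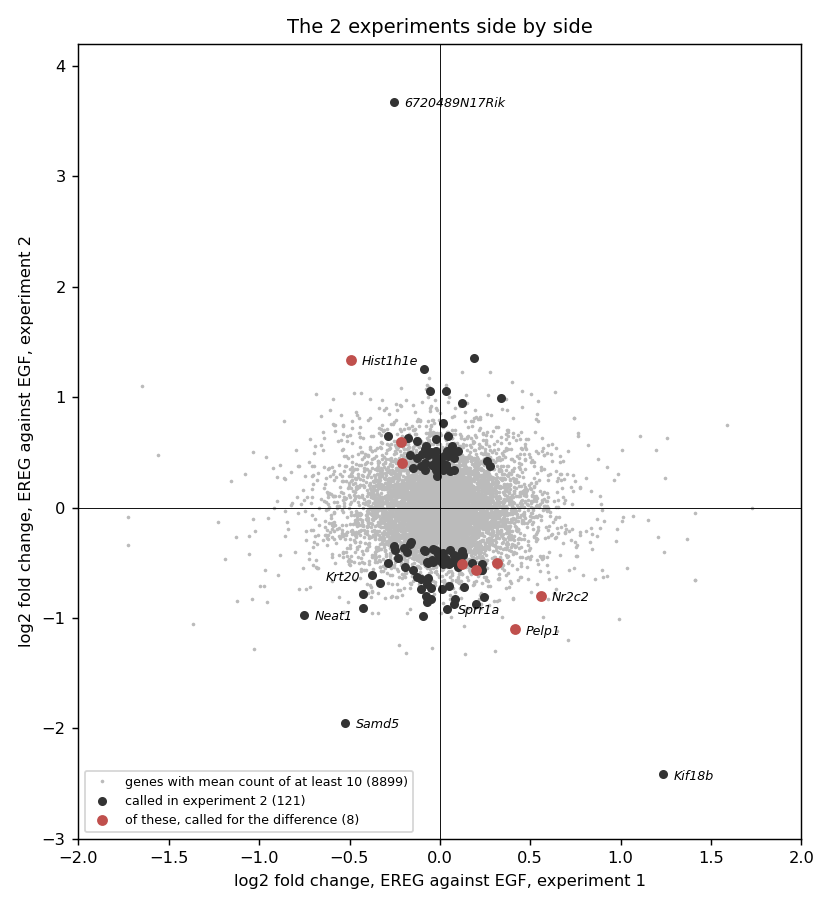
Log2 fold change of EREG against EGF in experiment 1 (horizontal axis) and experiment 2 (vertical axis) for 8899 genes that averaged 10 or more counts (grey); black points are the 121 genes called in experiment 2, and red points are the 8 of them whose difference between experiments also passed. Genes called in experiment 2 spread on both sides of 0 in experiment 1, with medians there of -0.02.

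The lists gave a mixed picture between the experiments. The Paneth list had medians of -0.25 in experiment 2 and -0.16 in experiment 1, the goblet list -0.12 and -0.13, and the detoxification list -0.25 and -0.17. The ribosomal protein list had 0.17 and -0.01, the fetal and regenerative list -0.23 and -0.01, and the mitochondrially encoded mRNAs 0.35 and -0.22. No list was tested for a difference.

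The difference of the EREG response between the experiments passed for 9 genes (0.0742%), 4 in which it was higher in experiment 2 and 5 in which it was lower. Pelp1 had a log2 fold change of -1.10 in experiment 2 and 0.42 in experiment 1, a difference of -1.52 ± 0.31 (edgeR adjusted p = 0.0277). Nr2c2 had -0.80 and 0.56, Eif5b -0.51 and 0.12 (both adjusted p = 0.0312), Thoc2 -0.56 and 0.20, and Frrs1, a ferric reductase, -0.50 and 0.32. The difference was positive for Hist1h1e (1.34 and -0.49), Gm26917 (0.59 and -0.22), mt-Nd2 (0.40 and -0.21) and mt-Nd1 (0.29 and -0.22). The count was 241 without EREG 3, 0 without EREG 1, 0 without EREG 2, 2 without EGF 1, 0 without EGF 2 and 9 without EGF 3. For Krt20, Sprr1a and Serpinb1a the difference did not pass (adjusted p = 0.776, 0.339 and 0.329).

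NRG1, a ligand of ERBB3 and ERBB4, was compared with the same EGF libraries, so its values are only set beside those of EREG. Sprr1a was at -0.92 with EREG and 0.73 with NRG1, Apoa4 at -0.49 and 1.01, Fabp6 at -0.91 and 1.54, and Ces1d at -0.83 and -2.27. Krt20 was at -0.61 with EREG and -0.06 with NRG1, and Cyp4f14 at -0.53 and 0.15. Neither Krt20 nor Cyp4f14 passed with NRG1 (edgeR adjusted p = 0.877 and 0.464). The fetal and regenerative list had medians of -0.23 with EREG and 0.78 with NRG1, the annexins and S100 genes -0.21 and 0.48, and the Paneth list -0.25 and -0.62.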

How the data were processed

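Per the labels and the study's methods, the authors aligned the 61 nt reads to GRCm38 with STAR 2.7.8a and made the deposited counts of UMIs per gene with BRB-seqTools, and their notes also name DESeq2 and MultiQC. The sources used here do not give the strand setting of the counting. The other deposited table, the authors' sample sheet, gave pool, well and replicate number. A reporter gene with 6 counts was left out. Symbols were matched by identifier for 30934 of 31053 genes, and 0 columns of other samples were present.

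Genes that reached 5 counts over the libraries and averaged 1 normalized count were tested with edgeR 4.0.16 (R 4.3.3; TMM, robust quasi-likelihood F test, two-sided). The fit of all 18 libraries had 6 means for ligand and experiment and, as in the study's design, the replicate number (10 residual degrees of freedom). P-values were Benjamini-Hochberg adjusted over 12130 genes, with calls under 0.1. Normalized counts are counts divided by the library total times its TMM factor, then multiplied by the mean of that product over the libraries. For the filter on the average, counts were divided by DESeq2 size factors. The SE was derived as the size of the log2 fold change over the root of the F statistic. DESeq2 1.42.0, limma-voom (limma 3.58.1), other normalizations, filters, blocks and libraries were alternatives. The procedure was tested on simulated data.

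Genes were named by a rule: the 12 largest rises and 12 largest falls among called genes that averaged 10 or more counts and did not overlap between ligands, the 10 smallest adjusted p, up to 20 called without each library, up to 3 called per list, those called for the difference between experiments, and 17 fixed genes (Egf, Ereg, Areg, Egfr, Erbb2, Erbb3, Krt20, Sprr1a, Ly6a, Lgr5, Olfm4, Mki67, Lyz1, Muc2, Chga, Alpi, Malat1). Ces2c, Defa30, Reg4, Nrg4, Eef1a1, Rps10, Rps24, Rpl27a, Eif3e, Npm1, Ctnnb1, Mgam, Slc12a2, 6720489N17Rik, Samd5 and Kif18b fall outside it and were added after their values were seen. The genes compared, the lists and the rule were chosen with earlier results of these data known. Promoters and the coordinates of the printed stretches are from RefSeq (GRCm38.p6). Gene coordinates and transcript lengths are from GENCODE (GRCm38). A few results are not reported here.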

Additional observations from a re-analysis of the deposited data

Results flagged for a closer look

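In 9 genes the log2 fold change of EREG against EGF differed between the experiments by the test of that difference in the joint fit (edgeR, adjusted p under 0.1). The difference, experiment 2 minus experiment 1, was -1.52 for Pelp1, -1.36 for Nr2c2, -0.82 for Frrs1, -0.76 for Thoc2 and -0.63 for Eif5b. It was 1.83 for Hist1h1e, 0.81 for Gm26917, 0.61 for mt-Nd2 and 0.52 for mt-Nd1. In experiment 1 Pelp1 had normalized counts of 61.8, 78.9 and 53.5 with EGF and 104, 91.2 and 63.3 with EREG, and Hist1h1e had 46.4, 36.4 and 30.1 against 24.2, 23.4 and 31.7. Eif5b had 1220, 1350 and 1103 against 1445, 1280 and 1264, and mt-Nd1 had 7868, 8660 and 6956 against 6165, 7120 and 6792. The ranges of the 2 ligands overlapped in experiment 1 for Pelp1, Hist1h1e, Eif5b and mt-Nd1. Only groups of 3 libraries were present, so no library was tested for standing apart within a group.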

How the results depend on the processing

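Of 121 calls (53 higher, 68 lower), leaving out 1 library gave 2 to 532 (0 to 229 higher, 2 to 303 lower). Leaving out both libraries held in tubes, an alternative chosen after seeing the data, gave 564 (241 and 323). With 5 counts in all as the only filter there were 201 (91 and 110), with no filter 82 were higher, and at an adjusted p under 0.05 there were 55 (26 and 29). Only the 9 libraries of experiment 2 gave 344 (148 and 196) and only the 6 libraries gave 304 (129 and 175), both with the replicate block, the 6 libraries with no replicate block gave 116 (47 and 69), and pool S3 alone gave 0 (0 and 0).

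The replicate numbers were not shown to pair the libraries: the deviations of the same-numbered EGF and EREG libraries correlated at 0.0484, 0.1703 and 0.0205. With no replicate block 29 genes passed (13 and 16), and with the replicate block within experiment 281 (119 and 162).

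The 9 genes for the difference between experiments were 0 to 241 with 1 library left out, 279 without the tube libraries, 14 with DESeq2, 56 with 5 counts as the only filter, 49 with no filter, 0 with no replicate block, 99 with the replicate block within experiment, 19 without robust estimation, 0 in pool S3 and 5 at an adjusted p under 0.05. The 0 calls of experiment 1 became 1 with library totals, with 5 counts as the only filter, with no filter and without the tube libraries, 0 to 1 with 1 library left out and 2 with the replicate block within experiment. The settings with 6 or 9 libraries hold no experiment 1. The causes were not tested. No direction of a named gene that was called was reversed. Of 51 named genes called, DESeq2 kept 27, limma-voom 45, DESeq2's size factors in edgeR 50, library totals 48, the fit with no replicate block 19 and pool S3 0. With 1 library left out 2 (without EREG 1), 8 (without EREG 2), 18 (without EGF 1), 18 (without EGF 2), 20 (without EGF 3) and 49 (without EREG 3) were kept. The 3 libraries a ligand and the 1486253 to 1788324 UMIs limit what could be detected.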
